A study of Mus musculus with 2 samples.

Results

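The genes that make, recycle and use glutathione, together with those of the thioredoxin system, were compared between wild-type and *G9a*-KO mouse embryonic stem cells (ESCs). Members were all genes whose symbol in the platform annotation of the array names a glutathione transferase (Gst followed by a class letter), glutathione peroxidase (*Gpx*), glutaredoxin (*Glrx*), peroxiredoxin (*Prdx*), thioredoxin (*Txn*), thioredoxin reductase (*Txnrd*), glutamate-cysteine ligase subunit (*Gclc* and *Gclm*), glutathione synthetase (*Gss*) or glutathione reductase (*Gsr*). The rule used symbols alone and no measured value. It found 45 members among 18194 named genes, measured by 74 probe sets. *Prdx1*, *Prdx5*, *Prdx6*, *Prdx6b*, *Gsta1* and *Gstp2* also match the rule but had no probe set of their own here and were not analysed here.

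The comparison addresses gene expression in cells that lack G9a, the enzyme encoded by *Ehmt2*, which methylates histone H3 at lysine 9. Total RNA of 1 sample of each kind was hybridised to 1 array each. The WT cells were TT2, an F1 hybrid line (dam C57BL/6, sire CBA), and the *G9a*-KO cells were TT2-derived and lacked exons 26 and 27 of the gene, which encode the catalytic core of its SET domain. In these cells 1 allele was mutant from the start and the other was floxed. Both samples carry the same labels for medium (knockout serum replacement with fetal calf serum and LIF) and for the drug that deletes the floxed allele, 800 nM 4-hydroxytamoxifen for 48 h followed by 48 h without it. Whether the WT cells were given the drug is not stated separately. The methods of the study instead name an established null line, cultured with serum and LIF on inactivated embryonic fibroblasts. For *Ehmt2*, the brighter probe set read 2.05 in WT and 0.51 in *G9a*-KO, and the dimmer one -2.27 and -2.07. Whether either probe set falls within the deletion was not analysed here.

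Values are log2 levels, with the 75th percentile of each array set to 0, and a difference is *G9a*-KO minus WT. A level of -2.24 in WT or -2.13 in *G9a*-KO is the array median, taken over all probe sets. No detection calls were used, so levels near or under that median are not told from background here. Neither group has a second array, so no spread between replicates is known and nothing was tested. Fewer cells that use a gene and less RNA of it per cell cannot be told apart in bulk RNA.

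Glutathione, a tripeptide of glutamate, cysteine and glycine, is the main soluble thiol of the cell. It is built in consecutive steps by glutamate-cysteine ligase and glutathione synthetase, and its oxidised form is reduced again by glutathione reductase with NADPH. Peroxidases spend it on peroxides, transferases attach it to reactive compounds and glutaredoxins use it to free protein thiols. The thioredoxin system runs beside it, with thioredoxin reductase, thioredoxin and the peroxiredoxins in place of the corresponding glutathione enzymes. Many of these genes are known targets of NRF2 (gene *Nfe2l2*), a transcription factor that binds antioxidant response elements.

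In *G9a*-KO, 14 of the 45 members (31.1%) exceeded WT by over 1.3-fold, where 17.4% of all named genes were, and 6 (13.3%) were over 1.3-fold lower, where 17.2% were. Beyond 2-fold, 5 of them were higher (11.1%, against 4.61% of all named genes) and 3 were lower (6.67%, against 3.76%). The remaining 25 members lay within 1.3-fold. The median difference was 0.11 over the members and 0.036 over all named genes, with 27 members positive and 18 negative. In either direction, 20 of the 45 passed 1.3-fold (44.4%, against 34.6% of all named genes). Dim genes pass a fold less often. Among genes with a probe set above the median, 14 of 40 members were higher (35%, against 20.5% of such genes). In that set 6 were lower (15%, against 22.6%). With each array centred on its median in place of the 75th percentile, 13 members were higher and 9 lower, and the share of higher members among those past 1.3-fold went from 70.0% to 59.1% (over all named genes, from 50.4% to 36.9%). The highest were *Glrx* (25.0-fold), *Gpx2* (13.9-fold), *Gsta3* (3.50-fold), *Gstp3* (3.15-fold) and *Gpx3* (2.05-fold). The lowest were *Gstt2* (4.64-fold lower), *Gstk1* (2.63-fold) and *Gstt3* (2.43-fold). Of the members, 37 exceeded the array median in both samples and 5 (*Glrx3*, *Gpx5*, *Gsta2*, *Gsto2* and *Gstt4*) in neither.

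**Figure D1:**
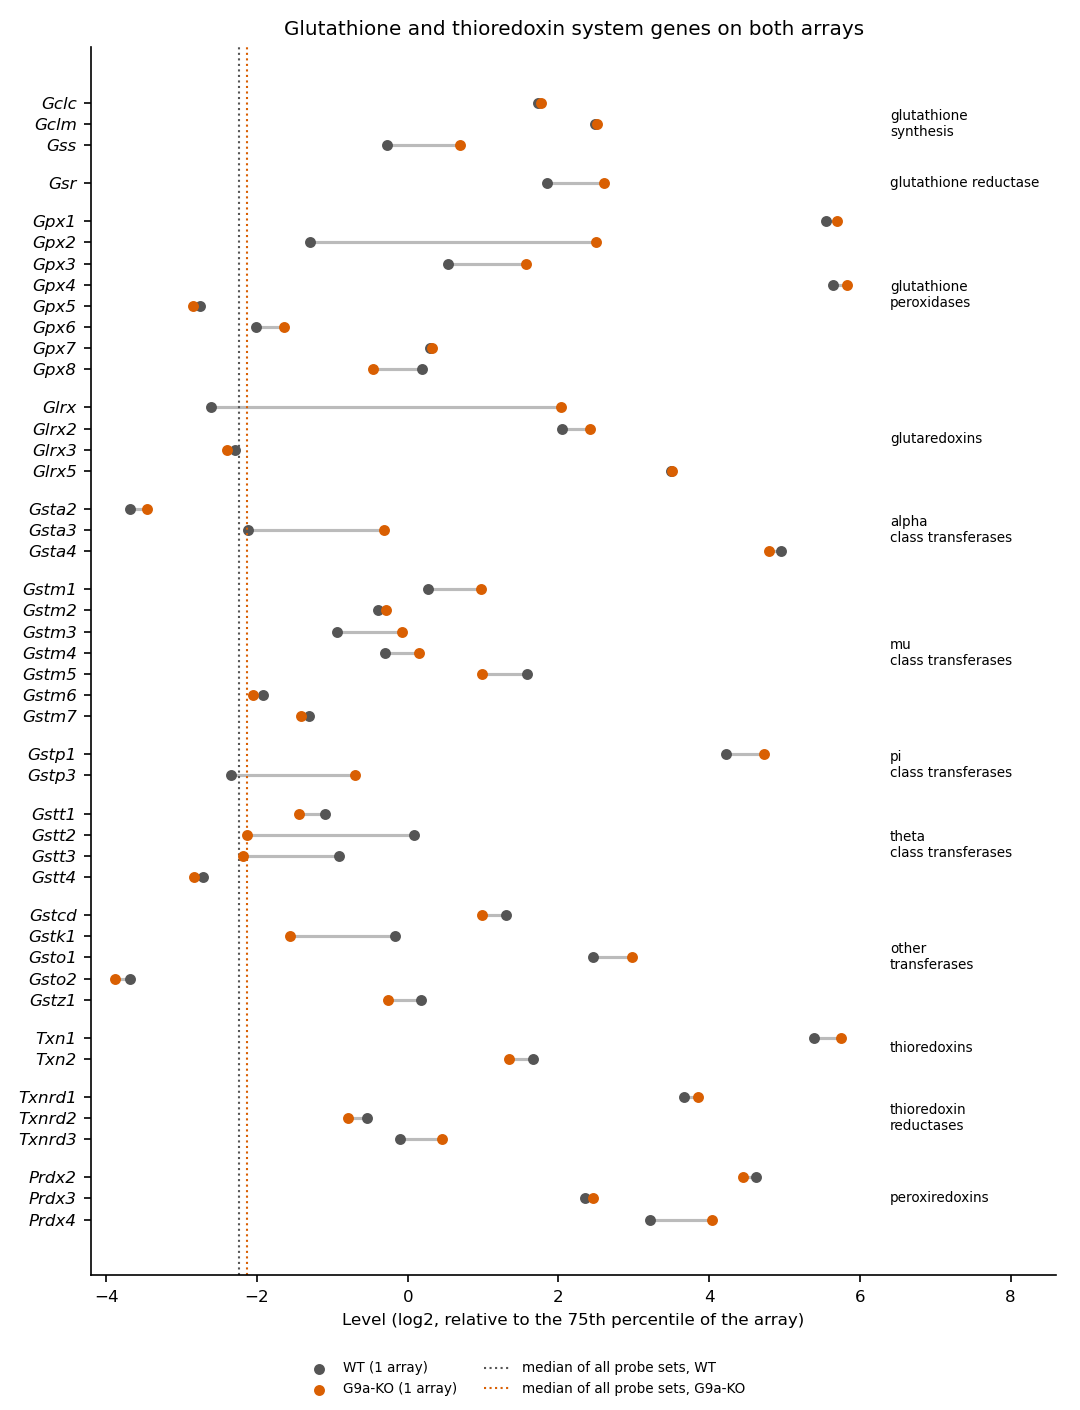
Level of each of the 45 members (horizontal axis, log2 with the 75th percentile of each array at 0) in WT (grey points) and *G9a*-KO (orange points), grouped by family; dotted lines mark the array medians. *Glrx* and *Gpx2* have the longest lines, from -2.62 to 2.03 and from -1.30 to 2.50, while most others are short. Positions of different genes on the axis are not comparable, since each probe set has its own brightness.

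Promoters of members at both ends of this range, and of *Gclm*, a textbook NRF2 target, were searched for letters matching the core of the antioxidant response element. Each sequence is RefSeq (GRCm38.p6), 250 bases before the transcript start to 50 after it, 5′ to 3′ on the strand of the gene. Capitals mark the core of the element, TGACNNNGC, searched on both strands. Where a gene had several starts, the window with the lowest coordinate is shown.
Glrx, chr13:75839635-75839934, plus strand: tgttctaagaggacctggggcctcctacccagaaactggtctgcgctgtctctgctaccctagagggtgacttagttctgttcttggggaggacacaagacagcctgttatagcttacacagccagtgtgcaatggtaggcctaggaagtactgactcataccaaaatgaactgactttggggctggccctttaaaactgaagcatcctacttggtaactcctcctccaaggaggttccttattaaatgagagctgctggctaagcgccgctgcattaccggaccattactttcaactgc
Gpx2, chr12:76795505-76795804, minus strand: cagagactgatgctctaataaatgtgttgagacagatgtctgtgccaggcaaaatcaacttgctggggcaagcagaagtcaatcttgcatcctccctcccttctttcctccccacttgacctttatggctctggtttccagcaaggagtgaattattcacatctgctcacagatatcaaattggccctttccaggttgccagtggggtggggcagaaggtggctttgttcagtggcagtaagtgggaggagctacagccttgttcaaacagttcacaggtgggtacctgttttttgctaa
Gsta3, chr1:21240335-21240634, plus strand: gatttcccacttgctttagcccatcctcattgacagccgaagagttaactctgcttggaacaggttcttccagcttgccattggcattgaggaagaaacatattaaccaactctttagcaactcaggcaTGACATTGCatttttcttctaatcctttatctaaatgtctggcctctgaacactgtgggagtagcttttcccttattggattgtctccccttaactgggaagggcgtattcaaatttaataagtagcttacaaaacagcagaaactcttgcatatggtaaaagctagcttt
Gstt3, chr10:75781365-75781664, minus strand: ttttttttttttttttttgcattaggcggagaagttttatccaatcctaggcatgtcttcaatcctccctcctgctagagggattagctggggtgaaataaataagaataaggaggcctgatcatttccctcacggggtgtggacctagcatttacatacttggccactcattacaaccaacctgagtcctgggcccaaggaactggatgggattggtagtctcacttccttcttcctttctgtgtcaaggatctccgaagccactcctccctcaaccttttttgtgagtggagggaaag
Gclm, chr3:122245307-122245606, plus strand: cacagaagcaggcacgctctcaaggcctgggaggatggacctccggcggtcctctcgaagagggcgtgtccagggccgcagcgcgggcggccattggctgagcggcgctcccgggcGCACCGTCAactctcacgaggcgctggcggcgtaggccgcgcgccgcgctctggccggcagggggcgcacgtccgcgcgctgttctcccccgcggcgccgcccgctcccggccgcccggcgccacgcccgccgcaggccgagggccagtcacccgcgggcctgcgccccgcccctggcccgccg

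The core was found in *Gsta3*, from position -121 relative to the start, and, on the opposite strand, in *Gclm*, from position -134. It was not in the windows shown for *Glrx*, *Gpx2* or *Gstt3*. Promoters were available for 41 of the 45 members (all but *Gclc*, *Gsr*, *Gsta4* and *Gstt2*), and 5 of the 41 (12.2%) held the core in at least 1 window, against 14.0% of the 27025 genes in the table. Besides *Gsta3* and *Gclm* these were *Gstm5*, *Gstm7* and *Txnrd1*. Of these 5, *Gsta3* was over 1.3-fold higher, *Gstm5* over 1.3-fold lower and the others within 1.3-fold. The E-box CACGTG, the binding motif of MAX in the study, was in windows of 3 members (*Glrx2*, *Gpx6* and *Prdx4*), with 8.09% of all genes holding it. These are matches of letters in short windows, and known elements of several such genes lie farther upstream.

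*Glrx* encodes glutaredoxin 1, the cytosolic enzyme that removes glutathione from protein thiols. In WT its probe sets gave -2.62 and -2.64, and in *G9a*-KO they gave 2.03 and 1.94. Both put *Glrx* below the array median in WT and well above the 75th percentile in *G9a*-KO. The differences of 4.64 and 4.58 were thus almost the same, and the former was in place 11 from the top among 18194 genes. Since the WT level cannot be told from background, the fold of 25.0 is not exact. The other glutaredoxins did not share this difference. *Glrx2*, found in mitochondria and the nucleus, lay at 2.05 and 2.42 (difference 0.36, with 0.34 and 0.42 by its other probe sets). *Glrx5*, which acts in iron-sulfur cluster assembly, lay at 3.49 and 3.50. *Glrx3*, also an iron-sulfur protein, was measured by 1 dim probe set of its own (-2.29 and -2.39), because 4 others also carry the name of a second gene.

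The glutathione peroxidases divided by gene. *Gpx2*, the peroxidase of gut epithelium, lay at -1.30 in WT and 2.50 in *G9a*-KO, a difference of 3.80 and place 36 from the top of all named genes. Both levels exceeded the array median. *Gpx3*, the secreted peroxidase of plasma, lay at 0.53 and 1.57 (difference 1.03). *Gpx8*, a membrane protein of the endoplasmic reticulum (ER), differed the other way, with 0.19 in WT and -0.46 in *G9a*-KO (1.57-fold lower). The peroxidases found in most cells differed little. *Gpx1*, the cytosolic enzyme, lay at 5.54 and 5.69, and *Gpx4*, which removes lipid peroxides, at 5.64 and 5.83. *Gpx7*, of the ER, lay at 0.29 and 0.32. *Gpx6* (difference 0.37), of the olfactory epithelium, stayed just inside 1.3-fold, and *Gpx5*, of the epididymis, lay below the median on both arrays. All of these except *Gpx4* had 1 probe set, so no second one checks the values of *Gpx2*, *Gpx3* and *Gpx8*.

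**Figure D2:**
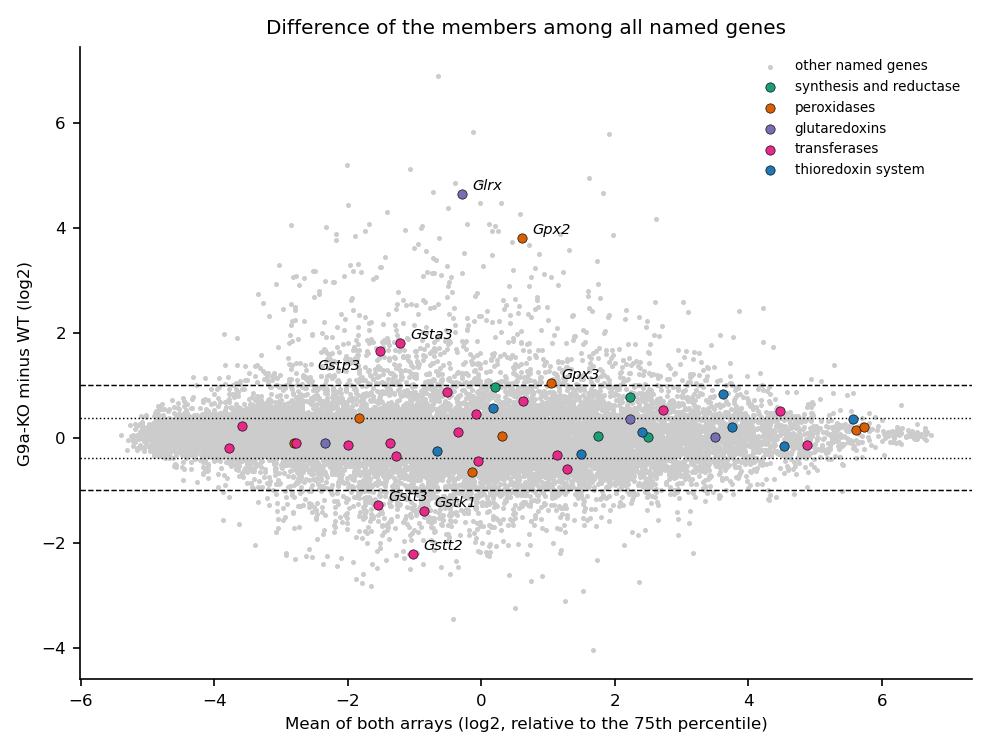
Difference between *G9a*-KO and WT (vertical axis, log2) against the mean of both arrays (horizontal axis, log2 with the 75th percentile of each array at 0) for 18194 named genes, 1 point per gene, with the members in colour; dotted lines mark 1.3-fold and dashed lines 2-fold. The 5 members above the upper dashed line and the 3 below the lower one are named.

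In the synthesis of glutathione, *Gss*, the last enzyme, was higher, while the subunits of the first enzyme were not. *Gss* lay at -0.28 in WT and 0.69 in *G9a*-KO, a difference of 0.96, and its other probe set gave 1.11. *Gclc*, the catalytic subunit of glutamate-cysteine ligase, lay at 1.73 and 1.76, and *Gclm*, the modifier subunit, at 2.48 and 2.51. Their other probe sets gave small differences in the opposite direction (-0.27 and -0.28). *Gsr*, which recycles oxidised glutathione, lay at 1.84 and 2.61 (difference 0.77), but its other probe set, of nearly the same brightness, gave 0.30 and stayed within 1.3-fold.

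Of the 21 transferases, 7 were over 1.3-fold higher (33.3%, against 17.4% of all named genes), 5 were lower (23.8%, against 17.2%) and 9 lay within it. The classes hold between 2 and 7 genes, and differences between classes were not tested. In the alpha class, *Gsta3*, which conjugates aflatoxin epoxide in the mouse, lay at -2.12 in WT and -0.32 in *G9a*-KO (difference 1.81). The WT level was barely above the median, and the second, dim probe set gave 0.63. *Gsta4*, which detoxifies lipid aldehydes, lay at 4.95 and 4.80, and *Gsta2* lay below the median on both arrays. In the pi class, *Gstp1* lay at 4.22 and 4.73 (difference 0.50) and *Gstp3* at -2.35 and -0.70 (difference 1.65), from a WT level below the median. *Gstp2* had no probe set of its own, and near-identical pi class copies can share signal, so the value of *Gstp1* may hold both.

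All 4 theta class differences were negative, and those of *Gstt2* and *Gstt3* passed 1.3-fold. *Gstt2* lay at 0.085 in WT and -2.13 in *G9a*-KO, a difference of -2.22 and place 38 from the bottom of all named genes. *Gstt3* lay at -0.91 and -2.19 (difference -1.28). In *G9a*-KO both were thus at the array median, so these folds are not exact either. *Gstt1* differed by -0.34 (-1.10 and -1.44) and stayed within 1.3-fold, although it passed that fold under other scalings of the arrays (-0.44 with each array centred on its median). *Gstt4* lay below the median on both arrays (-2.72 and -2.83). These 4 genes are direct neighbours on chromosome 10. Of the 6 measured protein-coding genes that flank them, 3 on each side, *Susd2* (difference 1.88) and *Cabin1* (0.41) were over 1.3-fold higher and *Smarcb1* (-0.49) was lower. *Mif* (-0.036), next to *Gstt2*, and *Ddt* (0.34), next to *Gstt3*, lay within 1.3-fold.

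The mu class, a cluster on chromosome 3, went both ways. *Gstm1* lay at 0.27 in WT and 0.97 in *G9a*-KO (difference 0.70), and its 4 probe sets gave between 0.62 and 0.70. *Gstm3* lay at -0.94 and -0.080 (difference 0.86) by a probe set that can bind several transcripts, while its other, dim probe set gave 0.094. *Gstm4* lay at -0.30 and 0.15 (difference 0.45). These 3 lie at 1 end of the cluster with *Gstm2*, which differed by 0.11. At the other end, *Gstm5* lay at 1.58 and 0.99 (difference -0.60), and *Gstm7* (-0.11) and *Gstm6* (-0.13) followed within 1.3-fold. A second, dim probe set of *Gstm7* gave -0.82, and the mean over its probe sets, -0.47, passed 1.3-fold. Mu class transcripts are similar enough to share probes, which leaves the value of any 1 of them uncertain.

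**Figure D3:**
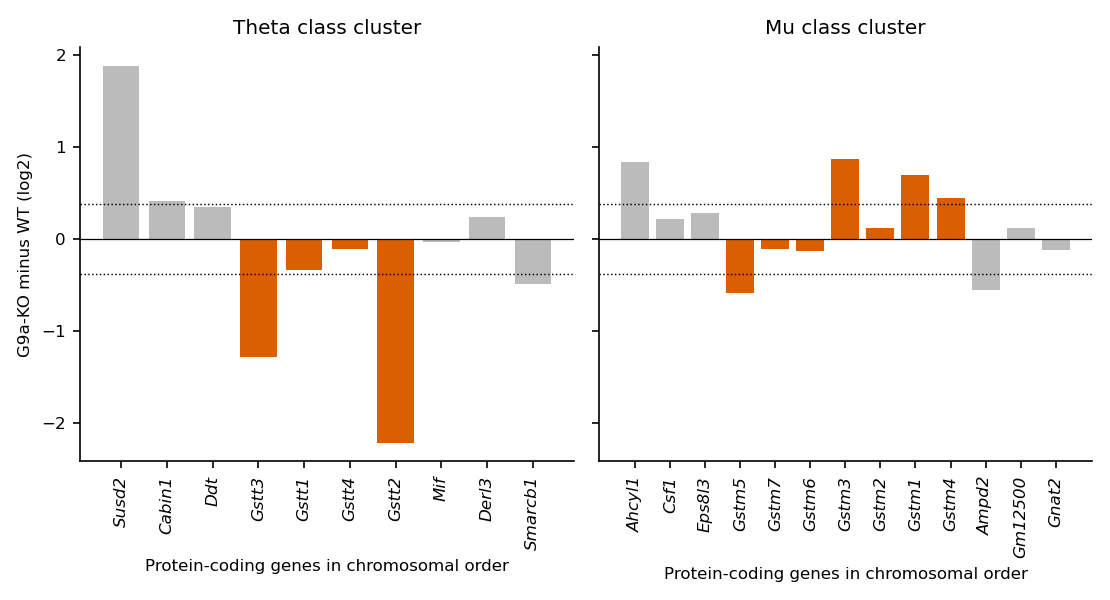
Difference between *G9a*-KO and WT (vertical axis, log2, 1 bar per gene) along the theta class cluster (left) and the mu class cluster (right), in chromosomal order with 3 protein-coding genes on each side; orange bars are members, grey bars are neighbours and dotted lines mark 1.3-fold. The 4 theta class bars all point down, with *Gstt2* at -2.22 and *Gstt3* at -1.28, whereas the mu class bars run from -0.60 (*Gstm5*) to 0.86 (*Gstm3*).

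Among the other transferases, *Gstk1*, a mitochondrial and peroxisomal enzyme, lay at -0.16 in WT and -1.56 in *G9a*-KO (difference -1.40). *Gstz1*, which acts in the breakdown of tyrosine, lay at 0.18 and -0.27 (difference -0.45). *Gsto1*, which reduces dehydroascorbate, was the one higher gene of this group, at 2.45 and 2.98 (difference 0.52, and 0.46 by its other probe set). *Gstcd*, which only carries a transferase-like domain, differed by -0.32 (-0.38 with no shift of the arrays and -0.43 with median centring, both past 1.3-fold), and *Gsto2* lay below the median on both arrays.

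Of the 8 measured genes of the thioredoxin system, 2 were over 1.3-fold higher (25%, against 17.4% of all named genes) and 0 were lower (against 17.2%). *Txn1*, the cytosolic thioredoxin, lay at 5.39 in WT and 5.75 in *G9a*-KO, and *Txn2*, the mitochondrial one, at 1.66 and 1.34, both within 1.3-fold and in opposite directions, although *Txn2* passed that fold with each array centred on its median (-0.42). Their other probe sets gave the same directions, with 0.30 for *Txn1* and between -0.37 and -0.19 for *Txn2*. Of the reductases, *Txnrd1*, the cytosolic enzyme, lay at 3.66 and 3.86. *Txnrd3*, known from testis, lay at -0.11 and 0.45 (difference 0.56), and its 3 probe sets gave between 0.49 and 0.56. The 4 probe sets of *Txnrd2*, the mitochondrial enzyme, ran from -0.25 to 0.47, so they give no direction. Of the peroxiredoxins, *Prdx4*, which works in the ER and is encoded on the X chromosome, lay at 3.21 and 4.04 (difference 0.83). Its other probe sets above the median gave 0.71 and 0.39, and a dim one gave -0.52. *Prdx2* (-0.17), of the cytosol, and *Prdx3* (0.11), of mitochondria, lay within 1.3-fold by their brightest probe sets, although a second probe set of *Prdx2* gave -1.16.

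Probe sets of the same gene show how far separate measurements on the same arrays agree, although not the spread between cultures. Of the 45 members, 19 had more than 1 probe set, and 16 had several above the median. Between the brightest and the next probe set of these 16, the median gap in the difference was 0.090, and 13 of the 16 pairs had the same direction (81.3%). Over 5074 named genes with such pairs, the median gap was 0.21 and 74.6% had the same direction.

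**Figure D4:**
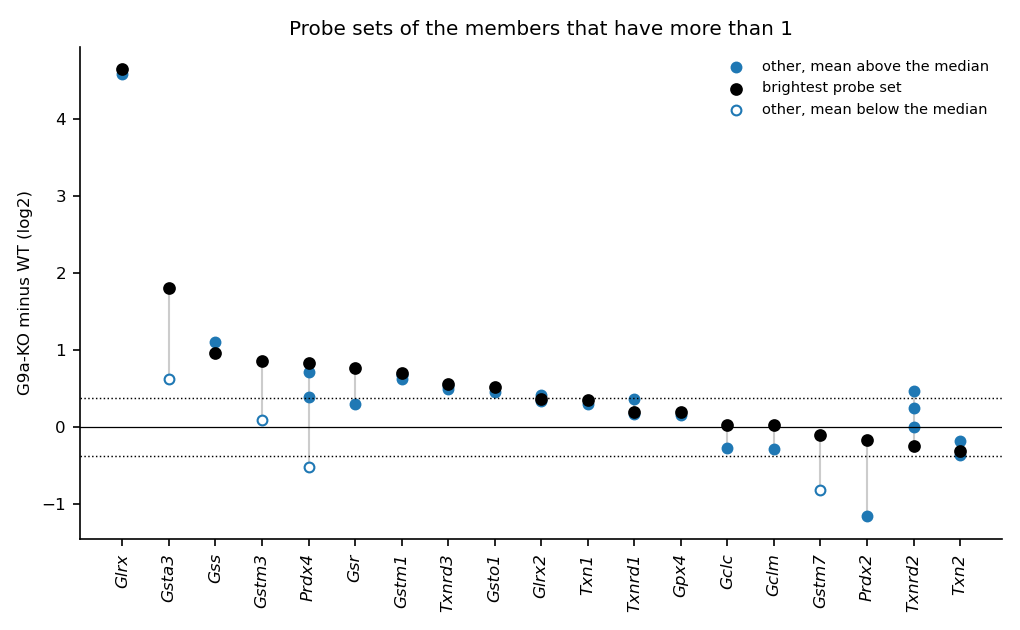
Difference between *G9a*-KO and WT (vertical axis, log2) for each probe set of the 19 members with more than 1, 1 point per probe set; black points are the brightest probe sets, filled and open blue points the others with means above and below the median of all probe sets, and dotted lines mark 1.3-fold. The 2 points of *Glrx* nearly coincide at 4.64 and 4.58, while those of *Txnrd2* lie on both sides of 0.

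Genes around these families were counted by list. Of 17 measured NRF2 targets outside the member families, 7 passed 1.3-fold upward (41.2%, against 17.4% of all named genes). In the other direction 1 did (5.88%, against 17.2%), and the median difference was 0.30. *Me1*, which supplies NADPH, lay at 0.75 in WT and 3.09 in *G9a*-KO (5.05-fold). *Ephx1*, an epoxide hydrolase, lay at 0.050 and 1.58 (2.90-fold), *Nqo1*, a quinone reductase, at 0.053 and 1.32 (2.40-fold) and *Cbr3*, a carbonyl reductase, at 0.52 and 1.64 (2.18-fold). Other well-known targets differed little or the other way. *Hmox1*, the inducible haem oxygenase, lay at 2.13 and 2.06. *Srxn1*, which repairs peroxiredoxins, was 1.60-fold lower (1.08 and 0.40). The list thus did not differ as a block. Of 8 NRF2 regulators, 3 were higher (37.5%, against 17.4%) and 1 was lower (12.5%, against 17.2%), with a median of 0.35. *Maff* (difference 1.23), a small Maf partner of NRF2, *Bach1* (0.70), a repressor of the same elements, and the NRF2-related *Nfe2l1* (0.68) were higher. *Keap1* (-0.63), the inhibitor of NRF2, was lower by its brighter probe set. The other probe set of *Keap1* gave 0.23, so its direction is uncertain. *Nfe2l2* itself differed by 0.37, just inside 1.3-fold (0.38), and its other, dim probe set gave 0.66.

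Of 14 genes of NADPH supply, 7 (50%, against 17.4% of all named genes) were higher and 0 lower (against 17.2%), with a median difference of 0.35. After *Me1* these were led by the mitochondrial NAD kinase *Nadk2* (difference 1.19), the isocitrate dehydrogenase *Idh2* (0.97) and *Aldh1l1* (0.72), of folate metabolism. Of 17 genes of glutathione degradation and cysteine supply, 10 (58.8%, against 17.4%) were higher and 1 (5.88%, against 17.2%) was lower. The median difference was 0.47. *Slc1a4* (1.48), a carrier of small neutral amino acids, *Cth* (1.18), which makes cysteine from cystathionine, the glutathione conjugate exporter *Abcc1* (0.91) and *Slc3a2* (0.91), the heavy chain of the cystine carrier, led this list, whereas its light chain *Slc7a11* was dim on both arrays (-4.26 and -3.91). The lower gene was *Chac2* (-0.71), which degrades glutathione. *Me1*, *Slc3a2*, *Abcc1*, *Slc7a11* and *Srxn1* each stand in more than 1 of the lists given here.

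Of 13 microsomal transferases and other glutathione-using enzymes, 5 were higher (38.5%, against 17.4% of all named genes) and 1 lower (7.69%, against 17.2%). The median was 0.26. *Mgst2* (1.03), *Clic1* (0.65) and *Clic4* (0.62) were higher, and *Mgst1* (-0.95) was lower, from a WT level of only -2.23. Of 21 proteins with a thioredoxin fold or a thioredoxin-binding site, 8 were higher (38.1%, against 17.4% of all named genes). Another 3 were lower, a smaller share than the 17.2% of all named genes, and the median difference was 0.21. The ER or membrane proteins *Tmx4* (0.82) and *Erp44* (0.81) were higher, and *Txnl4a* (-0.99) and *Txnl4b* (-0.93), which belong to the splicing machinery, were lower. Selenoprotein synthesis is the machinery that places selenocysteine in some glutathione peroxidases and in the thioredoxin reductases. Of 9 genes of this machinery, 0 were higher (against 17.4% of all named genes) and 3 were lower (33.3%, against 17.2%). The lower ones were *Scly* (-0.71), *Sephs1* (-0.71) and *Eefsec* (-0.54), and the median of the 9 was -0.29. Of 14 other enzymes against superoxide and peroxide, 2 were higher and 3 lower (21.4%), near the shares of all named genes (17.4% higher and 17.2% lower). Their median was 0.10, but -0.21 with the mean over probe sets and -0.34 with the largest absolute difference per gene, so it has no settled direction. Catalase, *Cat*, lay at 3.09 and 3.77 (difference 0.68), and the methionine sulfoxide reductases *Msrb2* (-1.55) and *Msrb3* (-0.82) were lower.

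**Figure D5:**
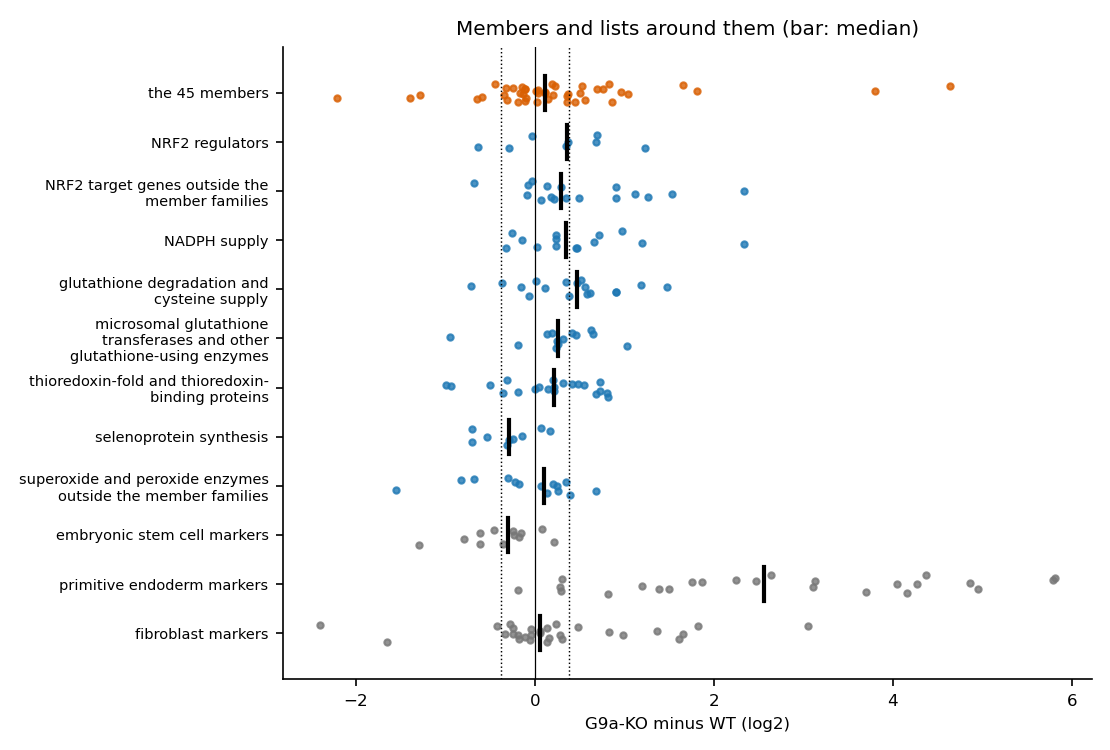
Difference between *G9a*-KO and WT (horizontal axis, log2) for the 45 members (orange), the pathway lists around them (blue) and marker lists of cell types (grey), 1 point per gene with the median as a black bar; dotted lines mark 1.3-fold. The medians of the pathway lists lie between -0.29 and 0.47, that of the members at 0.11 and that of the primitive endoderm markers at 2.56.

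Markers of cell types were read beside these results. All 12 ESC markers lay above the median on at least 1 array. Of the 12, 5 were over 1.3-fold lower (41.7%, against 17.2% of all named genes) and 0 higher (against 17.4%), with a median of -0.30. These were *Lin28a* (difference -1.29), *Zfp42* (-0.79), *Sall4* (-0.62), *Utf1* (-0.61) and *Pou5f1* (-0.46, from 4.91 to 4.45), whereas *Nanog* lay at 4.10 in WT and 4.31 in *G9a*-KO. Of 24 measured primitive endoderm markers, 20 were higher (83.3%, against 17.4% of all named genes) and 0 were lower (against 17.2%). The median of their levels was -1.84 in WT and 1.48 in *G9a*-KO. Primitive endoderm arises in the blastocyst and in ESC cultures. Of 29 fibroblast markers, 8 were higher (27.6%, against 17.4%) and 3 lower (10.3%, against 17.2%). Their median level was -2.24 in WT and -2.14 in *G9a*-KO. The largest differences were those of *Col5a2* (3.06), *Cnn1* (-2.40), *Anxa1* (1.82) and *Fstl1* (-1.66). *Timp3* (1.65), *Fn1* (1.61), *Col6a3* (1.37), *Lum* (0.98), *Col1a2* (0.83) and *Twist1* (0.48) were also higher, and *Fap* (-0.42) was also lower. Among these, *Lum* (-3.51 and -2.52) and *Fap* (-3.52 and -3.94) lay below the median on both arrays. *Twist1* (-2.31) and *Col6a3* (-2.24) lay at or below it in WT. *Vim* lay at 3.88 in WT and 3.84 in *G9a*-KO, and the collagen genes *Col1a1* (-2.65 and -2.41) and *Col3a1* (-4.61 and -4.55) lay below the median on both arrays. The part of endoderm cells or feeder cells in the differences of the members was not tested.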

How the data were processed

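Biotin-labelled cRNA from 200 ng of total RNA of 1 WT and 1 *G9a*-KO sample was hybridised to Affymetrix mouse arrays. The values as deposited are log2 intensities that the authors obtained by RMA under R 3.2.1, per the labels (the R package is not stated there). This method subtracts background, equalises quantiles and summarises probes, so a difference in total RNA per cell cannot be seen.

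Following the methods of the study, the 75th percentile of each array (7.37 in WT and 7.31 in *G9a*-KO, over 45101 probe sets) was subtracted and *G9a*-KO minus WT was taken. The study's fold for this pair, 1.3, and 2 were used. Of the probe sets, 34958 carried 1 gene symbol in GEO's platform annotation and stood for 18194 genes; 932 with several symbols were not used. Each gene was represented by its brightest probe set (mean of the arrays). All 45 members matched RefSeq (GRCm38.p6) by gene ID, which also gave the order of neighbours. The members and lists were chosen with earlier results of these data known. All members could be named. Of each list, up to 4 with the largest difference above the median were named by rule. *Hmox1*, *Nfe2l2*, *Slc7a11*, *Chac2*, *Pou5f1*, *Nanog* and the fibroblast markers past the first 4 were added after their values were seen. Primitive endoderm markers were not named. The number of arrays limits the precision, and no p-value was computed. Steps were tested on simulated data. Alternatives were no shift, median centring, quantile normalization, lowess (span 0.3), other choices of probe set and a filter on dim probe sets. Python 3.11.15, pandas 2.3.3 and statsmodels 0.14.6 were used.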

Additional observations from a re-analysis of the deposited data

How the results depend on the processing

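The counts of members past 1.3-fold and 2-fold kept within 1.5 times their value under the 8 alternatives and under the study's rule that 1 probe set past the fold is enough, which was added after the data were seen. Higher members at 1.3-fold numbered between 13 and 16 and lower ones between 6 and 9, and at 2-fold between 4 and 6 and between 3 and 4. The median difference ran from 0.011 (median centring) to 0.13. Median centring lowered the median over all named genes by a shift of -0.10, took the share of higher genes among all calls at 1.3-fold from 50.4% to 36.9% (at 2-fold from 55.1% to 44.3%) and that among the calls of members from 70.0% to 59.1% (13 higher and 9 lower). Of the higher and lower members, *Gstm3* came within 1.3-fold without probe sets that bind several transcripts (0.094), *Gstm4* under median centring (0.35) and *Prdx4* with the mean over its probe sets (0.35). *Glrx* ran from 4.54 to 4.65, *Gpx2* from 3.70 to 3.83, *Gsta3* from 1.22 to 1.81 and *Gstt2* from -2.32 to -2.22. No member past 1.3-fold, nor *Ehmt2*, changed direction under the 8 alternatives. Single genes of the pathway and marker lists were not checked in this way.

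Small counts in the pathway lists moved by over 1.5 times. Under median centring, the lower genes were 2 (NRF2 regulators), 1 (NADPH supply), 2 (glutathione degradation and cysteine supply), 5 (thioredoxin fold) and 5 (selenoprotein synthesis), and the higher genes were 3 (microsomal transferases and other glutathione-using enzymes) and 1 (superoxide and peroxide enzymes). Without a shift, there was 1 lower gene of NADPH supply, 2 of degradation and cysteine supply and 1 higher superoxide or peroxide enzyme, and under quantile normalization 2 lower genes of degradation and cysteine supply. With the mean over probe sets, 0 NRF2 regulators were lower, and 4 genes of NADPH supply and 3 glutathione-using enzymes were higher. With the largest absolute difference per gene, 1 gene of NADPH supply and 7 superoxide or peroxide enzymes were lower, with a median of -0.34 for the latter. With bright probe sets only, 0 glutathione-using enzymes were lower. The cause was not tested. No replicate could be left out, as each group has 1 array.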
